A study of Mus musculus with 21 samples.

Results

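Thymic immature conventional dendritic cells of type 2 (cDC2) were compared with thymic immature conventional dendritic cells of type 1 (cDC1) across all genes. The comparison took 3 cDC2 libraries and 4 cDC1 libraries, 7 of the 21 RNA-seq libraries of the study, chosen by their labelled tissue, subset and CCR7- state. The remaining 14 libraries were splenic immature cDC1 and cDC2 and thymic mature (CCR7+) cDC1 and cDC2. Their levels are given below only where the thymic immature difference is set beside theirs. They also entered the filter on low values and the main fit, whose estimate of the spread is shared by all groups. The files listed 37734 genes, of which 14970 passed the filter on low values and were tested.

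All cells came from C57BL/6 mice of 6 to 8 weeks, with tissue pooled over animals before each sort, so that a library is a pool and not an animal. Nothing in the labels states whether the libraries of a group came from separate pools on separate days. The p-values below measure only the spread between libraries of the same group, estimated in the main fit over all 6 groups. CD11c-enriched cells were sorted as CD24+ CD11b- CD11c+ for cDC1 and as CD24- CD11b+ CD11c+ for cDC2, both B220-, and the immature cells were CCR7- and Esam-. The labels give the further exclusion of F4/80, Ly6G, Ly6C and DX5 for the cDC1 gate and do not repeat it for the cDC2 gate. In the study's flow cytometry of NOD mice both subsets were defined as F4/80-, and those of B6 mice were identified in the same way. The study's RNA-seq methods name only CCR7 and ESAM for the sort.

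cDC1 and cDC2 are the main branches of conventional dendritic cells. cDC1 depend on the transcription factors IRF8 and BATF3, carry the chemokine receptor XCR1 and the dead-cell receptor CLEC9A, and are known for presenting taken-up antigen on MHC class I. cDC2 depend on IRF4 and other factors, carry SIRPα, and are known for presenting antigen on MHC class II to CD4 T cells. In the thymus both subsets present self antigen to developing T cells, and cDC2 are in part immigrants from the blood.

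The values are normalized read counts, that is the reads counted for a gene divided by a size factor of its library, and they are listed below in the order of replicates 1 to 4 of cDC1 and 1 to 3 of cDC2. The depth of the 7 libraries ranged from 14266867 to 33603513 reads assigned to genes. Group levels are mean ± SD with n = 4 for cDC1 and n = 3 for cDC2, folds are ratios of these means, and log2 differences are cDC2 minus cDC1 on the log2(value + 1) scale with their SE from limma. A gene was called higher or lower when its Benjamini-Hochberg adjusted p was under 0.1 and its log2 difference was larger than 1. Read counts of the same group differed most where cDC1 replicate 3 was involved, where the chi-square statistic divided by its degrees of freedom was 56.1 to 92.8, while the other cDC1 pairs gave 22.8 to 37.3 and the cDC2 pairs 20.9 to 37.7. Replicates 3 and 4 of cDC1 have the same number, index and lane in the labels, with a prefix added to the name of the latter. Their read counts differed most of all cDC1 pairs, at 92.8, and they were kept apart. Replicate 1 of each subset was sequenced in lane 5 and the others in lane 8.

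Thymic cDC2 stood apart from thymic cDC1 by higher C-type lectins, paired immune receptors, lysosomal proteases and part of the interferon-stimulated genes. Lower in cDC2 were cDC1 markers, Irf8 and Notch4. The medians of the MHC class II and cell cycle lists lay near 0, and few class II and no cell cycle genes passed. The subsets differed in 2456 of 14970 genes (16.4%). In cDC2, 1644 genes were higher (11.0%) and 812 were lower (5.42%), while the median difference over all tested genes was 0.012. These shares over all tested genes are the background for every count of list members below. Of the called genes, 567 were more than 8-fold higher and 169 more than 8-fold lower on the fitted scale. The values of the 4 cDC1 and 3 cDC2 libraries did not overlap in 2336 of the called genes (95.1%), against 34.8% of all tested genes. The calls rest on the same values, so a high share among called genes is built in. There were 150 genes higher in cDC2 with 3 reads or fewer in every cDC1 library and 69 genes lower in cDC2 with 3 reads or fewer in every cDC2 library. Of the 2456 called genes, 2237 were annotated as protein coding.

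**Figure D1:**
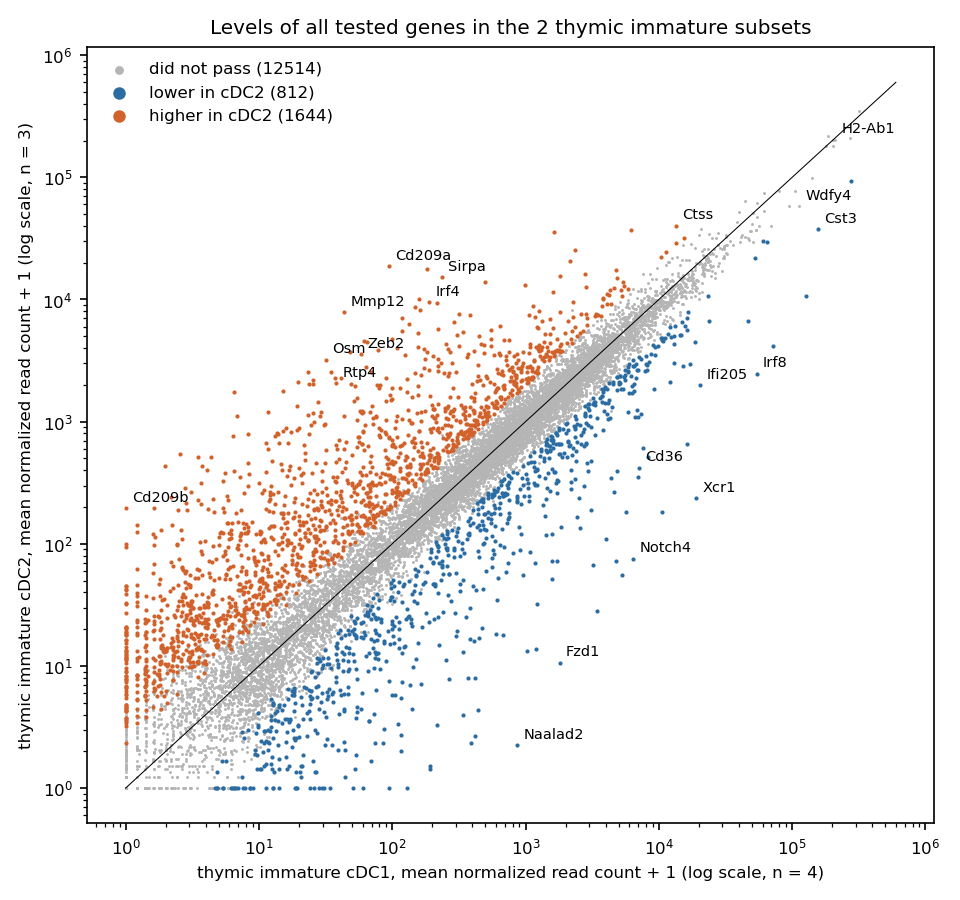
Mean normalized read count plus 1 of each tested gene in thymic immature cDC1 (x axis, n = 4) and cDC2 (y axis, n = 3), both on log axes, with the 1644 genes higher in cDC2 in orange, the 812 lower genes in blue and the rest in grey. Xcr1, Irf8 and Naalad2 lie far below the line of equal values, Sirpa, Cd209a and Mmp12 far above it, and H2-Ab1 close to it.

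The genes of the sorted proteins were described first, since they check the labels and are not findings. Cd24a was 11588, 12903, 11948 and 12168 in cDC1 and 1536, 2231 and 2558 in cDC2, and Itgam, which encodes CD11b, was 6.76, 15, 17.2 and 36.4 in cDC1 and 502, 445 and 305 in cDC2. Both followed the gates in all 7 libraries, with no overlap. Itgax, which encodes CD11c, was 20869 ± 1625 in cDC1 and 37573 ± 269.7 in cDC2 and did not pass the size limit (log2 difference 0.85 ± 0.21, adjusted p = 0.004). Esam was low in all libraries, at 19.4, 25.8, 29.6 and 19.2 in cDC1 and 1.07, 8.7 and 14 in cDC2, and its call was lost without cDC2 replicate 1, at a difference of -0.999. Ccr7, the receptor used to separate immature from mature cells, was 709.6, 556, 966 and 624 in cDC1 and 2662, 3608 and 3986 in cDC2, a 4.79-fold higher level in cDC2 (log2 difference 2.27 ± 0.31, adjusted p = 1.0e-05). The same gene was 110227 ± 18494 in mature cDC1 and 99928 ± 13553 in mature cDC2, so the immature cDC2 level lay far below that of the mature sort.

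Xcr1 (mm10, chr9:123852315-123862029), the receptor of the chemokine XCL1, was 20274, 20744, 16194 and 19180.1 in cDC1 and 88.6, 251 and 364 in cDC2. Sirpa (chr2:129592835-129632228), which encodes the receptor of CD47, was 260.2, 265, 173 and 236 in cDC1 and 16706, 13773 and 15428 in cDC2. The groups did not overlap for either gene, with a 81.4-fold lower Xcr1 and a 65.5-fold higher Sirpa in cDC2. Within lane 5 the difference of the single libraries was -7.82 for Xcr1 and 6.00 for Sirpa on the log2 scale, and within lane 8 it was -5.94 and 6.03. The labelled subsets thus carried the markers given for them.

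Of 20 tested genes known to mark cDC1, 18 were lower in cDC2 and none higher, with a median difference of -3.89 against 0.012 over all genes. The lower genes include Xcr1, which served to check the labels and is not a finding. Clec9a, the receptor of exposed actin on dead cells, was 7269, 7125, 6139 and 7334 in cDC1 and 225, 423 and 405 in cDC2 (log2 difference -4.36 ± 0.22, adjusted p = 7.5e-12). Cadm1, an adhesion molecule, was 5655 ± 596 in cDC1 and 181 ± 22.4 in cDC2, and Gcsam and Ttc39a stood at 70.7 ± 58.5 and 27.1 ± 8.84 in cDC2 against 4735 ± 91.5 and 3415 ± 329.5 in cDC1. Cd207, which encodes langerin, was 4764, 5368, 5850.0 and 5023 in cDC1 and 48, 53.6 and 60.7 in cDC2, about 97-fold lower in cDC2. The files list Rab7b as 5430435G22Rik, and its level was 16147 ± 583 in cDC1 and 658 ± 168 in cDC2. The remaining genes, sept-03 (Sept3) and Wdfy4, which is needed for cross-presentation, did not pass the size limit. Wdfy4 was 127965, 117675, 102224 and 101362 in cDC1 and 56293, 61060.2 and 57921 in cDC2, and its libraries did not overlap (log2 difference -0.94 ± 0.23, adjusted p = 0.004).

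Of 21 tested genes known to mark cDC2, 19 were higher in cDC2 and 1 lower, with a median difference of 4.59. The higher genes include Itgam and Sirpa, which served to check the labels and are not findings. Cd209a, a C-type lectin of the DC-SIGN family, was 98.8, 153, 53.1 and 69.7 in cDC1 and 17259, 19971 and 18644 in cDC2, a 199-fold difference (log2 difference 7.73 ± 0.61, adjusted p = 7.2e-09). Il1rn, the antagonist of interleukin 1, was 14.4, 7.5, 23.4 and 11.1 in cDC1 and 1877, 1885 and 1565 in cDC2, and Clec4a1 and Clec4a3 were 114-fold and 112-fold higher. Mgl2, a galactose lectin named after its values were seen, was 181 ± 40.3 in cDC1 and 17792 ± 799.6 in cDC2. The lower gene was Clec12a, the receptor of uric acid crystals, at 5117, 5032, 5922 and 5474 in cDC1 and 1689, 1975 and 1855 in cDC2. AF251705 (Cd300c2) was 1071 ± 238 in cDC1 and 2227 ± 147 in cDC2 without overlap and did not pass (log2 difference 1.08 ± 0.88, adjusted p = 0.48), though it passed when only the 7 libraries were fitted (limma, adjusted p = 0.0022) and in lane 8 alone (adjusted p = 0.035). Among the cDC1 markers, Ttc39a was uneven within cDC1, at 3266, 3233, 3909 and 3252, with replicate 3 above the other 3.

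**Figure D2:**
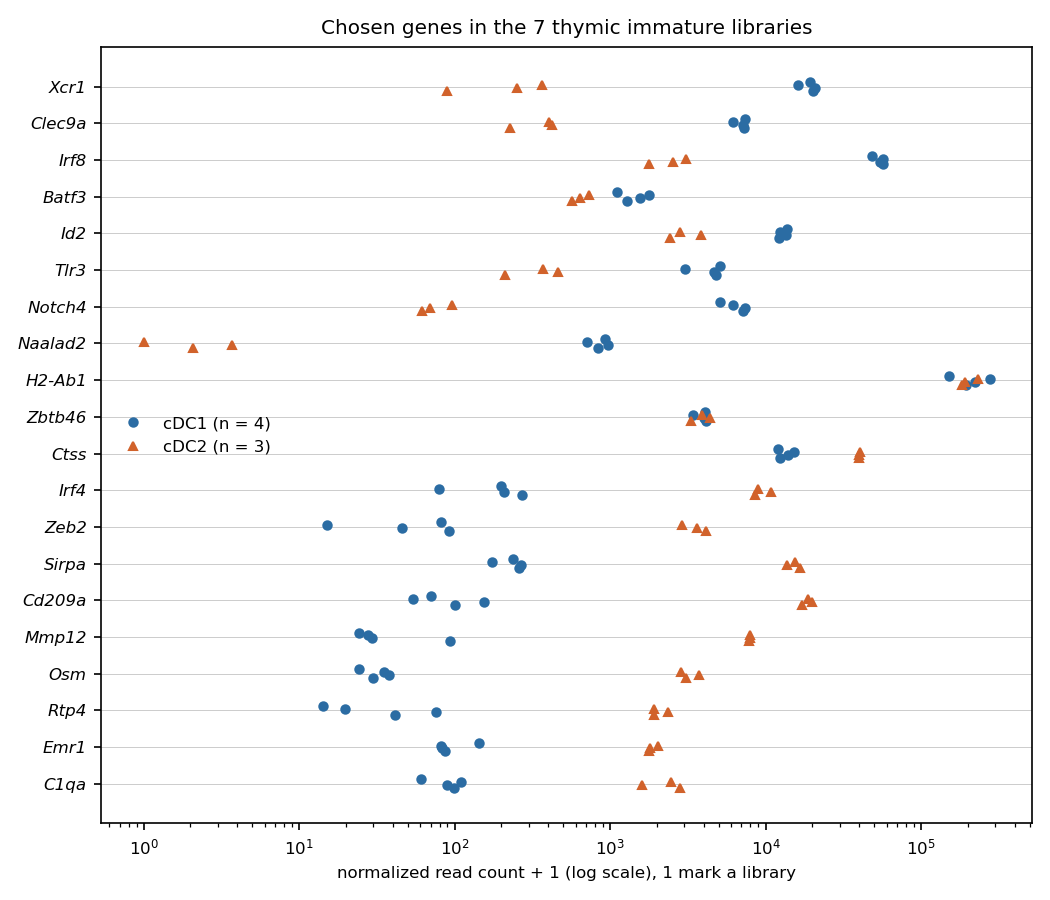
Normalized read count plus 1 (log axis) of 20 genes in each of the 7 thymic immature libraries, with cDC1 as blue circles and cDC2 as orange triangles. The libraries of the subsets separate for every gene shown except H2-Ab1 and Zbtb46, where the marks overlap.

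Of 38 tested transcription factors of dendritic cell development, 11 were higher in cDC2 and 5 were lower. Irf8 (chr8:120736358-120756694) was 56864, 54385, 56852 and 48730.3 in cDC1 and 1781, 2534 and 3086 in cDC2, 22-fold lower in cDC2 (log2 difference -4.49 ± 0.23, adjusted p = 1.5e-11). Irf4 (chr13:30749226-30766976) was 272, 206, 78 and 199 in cDC1 and 8542, 10832 and 9003 in cDC2, 50.1-fold higher in cDC2 (log2 difference 5.77 ± 0.28, adjusted p = 7.5e-12). All cDC2 libraries stood below all cDC1 libraries for Irf8 and above them for Irf4. The within-lane differences were -5.00 and -4.25 for Irf8 and 4.97 and 6.06 for Irf4 in lanes 5 and 8. Id2, an inhibitor of E proteins, was 12168, 13626, 12299 and 13733 in cDC1 and 2435, 3851 and 2829 in cDC2 (log2 difference -2.12 ± 0.20, adjusted p = 6.7e-08), and Batf3, the partner of IRF8 in cDC1, was 1281, 1551, 1768 and 1108 in cDC1 and 568, 643 and 732 in cDC2 (log2 difference -1.12 ± 0.27, adjusted p = 0.0036). The Batf3 difference, 2.2-fold, was small beside that of Irf8. Klf2 was 6853 ± 1065 in cDC1 and 1245 ± 306 in cDC2 and Bcl6 was 4555 ± 431 in cDC1 and 2128 ± 179 in cDC2, both lower in cDC2.

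Zeb2, a repressor that acts against the cDC1 fate, was 91.2, 45, 14 and 80.8 in cDC1 and 4161, 3626 and 2885 in cDC2, a 61.6-fold higher level in cDC2 (log2 difference 6.20 ± 0.39, adjusted p = 3.0e-10). Spib was 53.1 ± 28.8 in cDC1 and 1556 ± 158 in cDC2, Prdm1, which encodes BLIMP1, was 15.3 ± 10.3 in cDC1 and 359 ± 33 in cDC2, and Tcf4, the factor of plasmacytoid dendritic cells, was 1228 ± 344 in cDC1 and 5899 ± 298 in cDC2. The other 6 higher factors, beside Irf4, were Bcl11a, Cebpa, Runx1, Runx2, Tbx21 and Nfil3. Their log2 differences ranged from 1.01 for Nfil3 to 2.32 for Bcl11a, and Nfil3, at the size limit, dropped under it in the fits by edgeR and DESeq2. The 22 factors that did not pass included Zbtb46, which marks conventional dendritic cells of both kinds, at 4141, 3992, 3408 and 4069 in cDC1 and 3307, 4366 and 3927 in cDC2, with overlapping libraries (log2 difference -0.02 ± 0.15, adjusted p = 0.97). Spi1, which encodes PU.1, was 6643 ± 1519 in cDC1 and 7493 ± 818 in cDC2, Rbpj was 10692 ± 1455 in cDC1 and 8550.4 ± 1219 in cDC2, Klf4 was 5720.3 ± 1054 in cDC1 and 8737 ± 1847 in cDC2 and Notch2 was 7867 ± 1464 in cDC1 and 5359.8 ± 403 in cDC2. Ikzf1, Irf1, Irf2, Rel, Etv6, Batf, Batf2 and Egr2 had all cDC2 libraries above all cDC1 libraries without passing, with log2 differences from 0.27 for Etv6 to 1.06 for Egr2. Ahr, Egr1, Zeb1, Cbfa2t3, Runx3, Tox and Cebpb overlapped between the groups. Rxra was 3303 ± 306 in cDC1 and 2349.6 ± 149.9 in cDC2, and Relb, at 1458 ± 215 in cDC1 and 2805 ± 279.6 in cDC2, had a difference of 0.95 ± 0.25 that missed the size limit.

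Antigen presentation on MHC class II, which loads peptides made in endosomes, gave few called differences in its molecules. Of 17 tested genes, 1 was higher in cDC2 and none was lower, with a median difference of 0.090, and a second, Ifi30, passed in some of the other fits given below. H2-Ab1 was 193935, 221392, 276684 and 151904 in cDC1 and 183841, 191774 and 233950.0 in cDC2, and the 3 cDC2 libraries lay inside the range of cDC1. With lane as a covariate its log2 difference was 0.0036 with an SE of 0.40, so a difference of that size could not be told from 0. H2-Aa was 185125 ± 47277 in cDC1 and 217083 ± 29079.8 in cDC2, H2-Eb1 was 180398 ± 46456 in cDC1 and 179708 ± 24369 in cDC2 and the invariant chain Cd74 was 317299 ± 109054 in cDC1 and 352382 ± 81758 in cDC2, each with overlapping libraries. The gene that passed was H2-DMb2, a subunit of the peptide editor DM, at 2689, 2269.6, 3241 and 2147 in cDC1 and 7148, 7132 and 8399 in cDC2 (log2 difference 1.56 ± 0.22, adjusted p = 1.3e-05). Its partner H2-DMa was 12489.7 ± 3649 in cDC1 and 12821 ± 2218 in cDC2. The neighbouring H2-DMb1 was 13201 ± 2812 in cDC1 and 11214 ± 1308 in cDC2, and both overlapped. Reads of H2-DMb1 and H2-DMb2 may be shared, since they are near-identical neighbours. H2-Eb2, H2-Oa and H2-Ob, the last pair encoding the inhibitor of DM, had differences of 0.84, 0.65 and -0.39. Ciita, the master activator of class II genes, was 18975 ± 3311 in cDC1 and 19999 ± 1581 in cDC2, and Rfx5, Rfxank, Rfxap and March1, which encodes a ligase that removes class II from the surface, did not pass, at 0.07, 0.29, -0.55 and -0.37. Cd83, which stabilizes class II at the surface, was 12786, 14227, 13974 and 14161 in cDC1 and 18267, 25794 and 22207 in cDC2, without overlap (log2 difference 0.67 ± 0.16, adjusted p = 0.0038).

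The proteases that cut antigen and the invariant chain differed more. Of 19 tested lysosomal proteases and cystatins, 10 were higher in cDC2 and 1 was lower, with a median difference of 1.07. Ctss, which encodes cathepsin S, the enzyme that trims the invariant chain in dendritic cells, was 12459, 14007, 15155 and 12001 in cDC1 and 40133, 40218 and 40617 in cDC2. All cDC2 libraries stood 3.01-fold above cDC1 on average (log2 difference 1.59 ± 0.14, adjusted p = 3.3e-08), with within-lane differences of 1.69 and 1.57. Ctsl, which encodes cathepsin L and does the same work in thymic epithelium, was 153, 192, 208 and 155 in cDC1 and 347, 354 and 472 in cDC2 (log2 difference 1.14 ± 0.25, adjusted p = 0.0015). Its difference lay at the size limit and missed it, at 0.996, without cDC2 replicate 3. Prss16, the thymus-specific serine protease, was low in all 7 libraries, at 22, 60.8, 59.3 and 45.5 in cDC1 and 50.2, 25.4 and 21.8 in cDC2, and the groups overlapped (log2 difference -0.51 ± 0.66, adjusted p = 0.69). Its within-lane differences were 1.16 in lane 5, with 1 library a group, and -1.18 in lane 8, where it passed as lower (limma, adjusted p = 0.097). Ctsa, Ctsd and Cst7 were 9.45-fold, 6.28-fold and 27-fold higher. Ctsh was 4909, 4564, 5509.8 and 4236 in cDC1 and 17813, 16553 and 17863 in cDC2, with tight values in both groups, and Lgmn, the asparagine endopeptidase, was 679.9 ± 84 in cDC1 and 2386 ± 166 in cDC2. The lower gene was Cst3, which encodes the protease inhibitor cystatin C, at 132425, 153953, 220136 and 116063 in cDC1 and 32095, 37122 and 44457 in cDC2 (log2 difference -2.01 ± 0.29, adjusted p = 1.9e-05). Ctsb was 7810.3 ± 1162 in cDC1 and 12154 ± 1244 in cDC2, Ctsz was 8310.4 ± 2293 in cDC1 and 13577 ± 2475 in cDC2, Ctso was 713 ± 26.4 in cDC1 and 1062 ± 146 in cDC2, Napsa was 7698 ± 1673 in cDC1 and 10209.6 ± 429 in cDC2 and Cstb was 907 ± 279 in cDC1 and 1318 ± 221 in cDC2, and none of them passed. Ctse was 609, 877, 524 and 651 in cDC1 and 223, 323 and 243 in cDC2, without overlap. Its adjusted p in the main limma fit was 0.22, and it passed in edgeR and DESeq2. It also passed in limma when only the 7 libraries were fitted (adjusted p = 0.0026) and in lane 8 alone (adjusted p = 0.040). Ifi30, the thiol reductase of lysosomes, counted with the class II genes, was 6767, 4746, 13462 and 5641 in cDC1 and 17958, 5062 and 25471 in cDC2 and scattered widely in both groups (log2 difference 0.91 ± 0.41, adjusted p = 0.14). It did not pass in limma, but passed as higher in edgeR (log2 difference 1.06, adjusted p = 0.058), in DESeq2 (1.08, adjusted p = 0.028) and, in limma, without cDC2 replicate 2 (1.61, adjusted p = 0.0018) or cDC1 replicate 3 (1.23, adjusted p = 0.038). Ctsk stayed under 20 in every library.

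Class I presentation was skewed the other way. Of 17 tested genes for class I molecules and peptide loading, 4 were lower in cDC2 and none was higher, with a median difference of -0.52. Psmb9, an immunoproteasome subunit, was 7103, 7293, 10768 and 6884 in cDC1 and 2716, 2854 and 3279 in cDC2 (log2 difference -1.42 ± 0.21, adjusted p = 2.1e-05). Tap2, a subunit of the peptide transporter, was 6752 ± 918 in cDC1 and 2980.4 ± 236 in cDC2, Tapbpl, a peptide editor, was 2002 ± 170.0 in cDC1 and 954 ± 129.5 in cDC2, and Psme1, the proteasome activator, was 16494 ± 4146 in cDC1 and 7834 ± 529 in cDC2. In 13 of the 17 genes all cDC2 libraries lay below all cDC1 libraries, against 14.5% of all tested genes, though most of these differences were under the size limit. Tap1, Psmb8, Psme2, Calr, Nlrc5, Pdia3, H2-D1 and Tapbp were among them, with differences from -0.86 for Tap1 to -0.41 for Tapbp. H2-K1, Psmb10, Canx and Erap1 differed by -0.33, -0.21, -0.18 and -0.04, and B2m was 61994 ± 9788 in cDC1 and 74183 ± 5205 in cDC2. Psmb9 and Psme1 were highest in cDC1 replicate 3, and without that replicate the difference of Psme1 was -0.89 and missed the size limit. The difference of Tapbpl was -0.98 without cDC2 replicate 1 and missed it too.

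Among 17 genes with known roles in cross-presentation, 4 were lower in cDC2 and 2 were higher, with a median difference of -0.11. The lower share was 23.5% against 5.42% of all tested genes, but the lower genes Rab7b and Clec9a were already counted among the cDC1 markers. The higher share, 11.8%, was close to the 11.0% of all tested genes. Beside Rab7b and Clec9a, Rab43 was 994, 1119, 287 and 601 in cDC1 and 193, 167 and 137 in cDC2 and Ncf4 was 3888, 4457, 5326 and 3454 in cDC1 and 1061, 1053 and 1067 in cDC2, both lower in cDC2. The 2 higher genes, Cybb and Rac2, encode parts of the phagosomal NADPH oxidase, as does Ncf4, which was lower. Cybb was 291, 272, 134 and 161 in cDC1 and 10091, 10033 and 7743 in cDC2, a 43.3-fold higher level (log2 difference 5.50 ± 0.32, adjusted p = 1.1e-10), and Rac2 was 784 ± 199 in cDC1 and 2789.6 ± 171 in cDC2. The oxidase genes Ncf1 and Cyba did not differ beyond their spread, at 0.01 ± 0.14 and -0.14 ± 0.33 on the log2 scale. Sec61a1, Derl1, Sec22b, Lnpep, Vamp8, Rab27a, Pik3c3 and Igtp did not pass, with differences from -0.50 for Sec61a1 to 0.97 for Igtp.

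**Figure D3:**
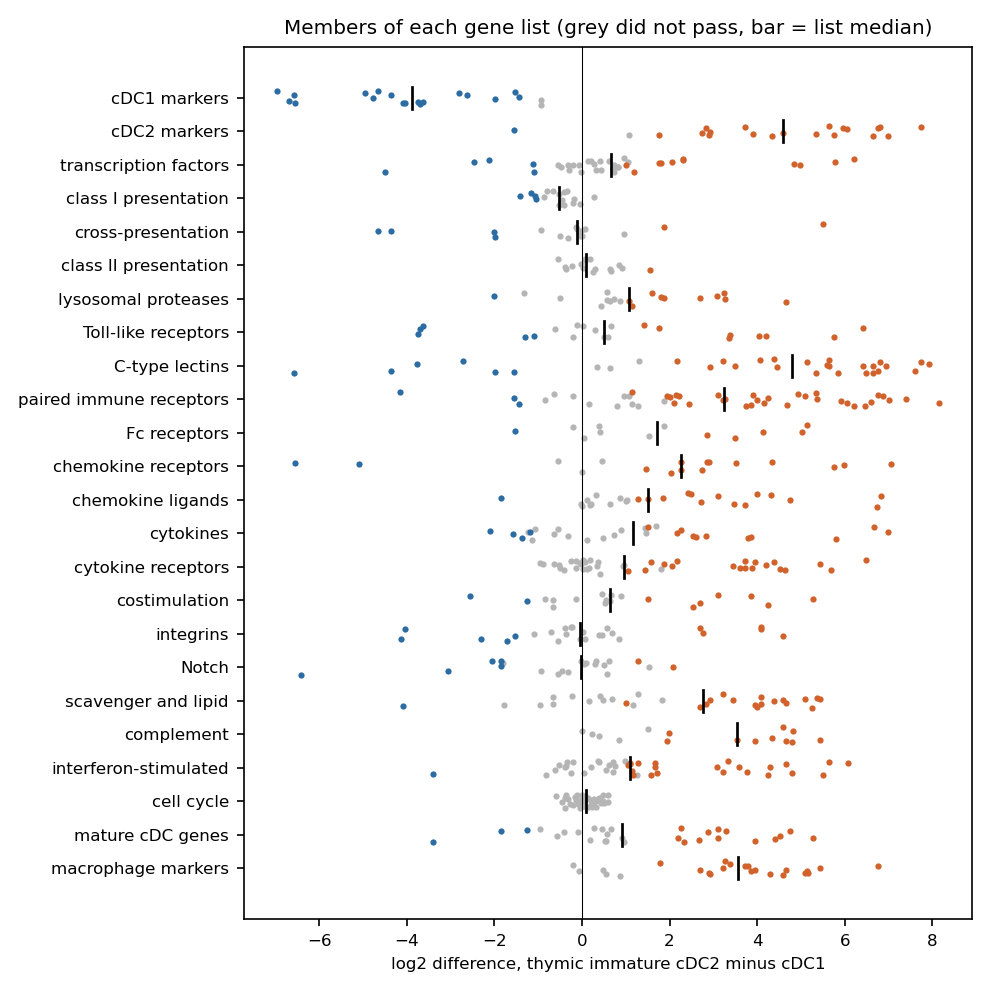
Log2 difference (cDC2 minus cDC1, x axis) of each tested member of 24 gene lists, with members called higher in orange, called lower in blue and the rest in grey, the list median as a black bar and a thin line at 0. C-type lectins, paired immune receptors, complement and macrophage markers lie mostly to the right, cDC1 markers to the left, and class II and cell cycle genes around 0.

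Pattern recognition receptors split between the subsets. Of 21 tested Toll-like receptors and partners, 8 were higher and 5 lower in cDC2. Tlr3, the receptor of double-stranded RNA, was 4805, 4691, 3013 and 5064 in cDC1 and 210.3, 461 and 371 in cDC2, and the profilin receptors Tlr11 and Tlr12 were 12.3-fold and 13.4-fold lower in cDC2. Cd180 was 4998 ± 670.2 in cDC1 and 2024 ± 197 in cDC2, and Unc93b1, the chaperone of the endosomal receptors, was 10315 ± 808 in cDC1 and 4799 ± 480.4 in cDC2. Tlr7, a receptor of single-stranded RNA, was 21.1, 45.8, 6.24 and 23.2 in cDC1 and 444, 361 and 335 in cDC2 (log2 difference 4.20 ± 0.76, adjusted p = 2.8e-04). Tlr5, the receptor of flagellin, was 9.29, 0, 3.12 and 2.02 in cDC1 and 173, 180.1 and 185 in cDC2, and Tlr8 was 2.53, 1.67, 3.12 and 0 in cDC1 and 247, 220.3 and 174 in cDC2. These levels of Tlr5 and Tlr8 in cDC1 came from a few reads a library or none. Tlr1 was 108 ± 21.7 in cDC1 and 1110.2 ± 103 in cDC2. Tlr2 was 1196 ± 80.8 in cDC1 and 4069 ± 84.7 in cDC2, and Ticam2, an adaptor, was 15.6-fold higher. Tlr9 and Myd88 differed by -0.19 ± 0.29 and 0.02 ± 0.20 and overlapped.

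C-type lectin receptors, which bind sugars of microbes and of the body's own cells, were mostly higher in cDC2. Of 32 tested members, 23 were higher and 6 lower, with a median difference of 4.79 against 0.012 over all genes. The DC-SIGN cluster on chromosome 8 was among the largest differences. Cd209c was 0.845, 9.16, 0 and 0 in cDC1 and 552, 578 and 411 in cDC2, Cd209d was 79.4, 62.5, 87.4 and 13.1 in cDC1 and 3936, 4091 and 5634 in cDC2 and Cd209e was 98, 107, 68.7 and 122 in cDC1 and 4017, 5354 and 5000.1 in cDC2. Cd209b had no read in any cDC1 library and 213, 216 and 157 in cDC2, at least 61.3-fold higher with a floor of 3 reads per library. These genes are close copies, and reads that fit several of them may have been split or dropped in counting. Clec4e, the receptor Mincle, was 0.845, 0, 0 and 0 in cDC1 and 156, 145 and 126 in cDC2, and its neighbour Clec4d, which had no read in cDC1, was 99.3, 89.7 and 107 in cDC2. Clec7a, which encodes the β-glucan receptor dectin-1, was 1686, 1382, 1985 and 1493 in cDC1 and 33245, 38263 and 34792 in cDC2, a 21.7-fold higher level (log2 difference 4.45 ± 0.21, adjusted p = 4.0e-12). Besides Cd207 and Clec9a, the lower lectins were Clec4b2, at 385 ± 70.2 in cDC1 and 28.7 ± 11.2 in cDC2, Clec1b, which shares exons with the Clec9a locus, at 53 ± 26.9 in cDC1 and 6.79 ± 3.18 in cDC2, Ly75 and Clec12a.

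Paired immune receptors, families with inhibitory and activating members, showed the same direction. Of 44 tested members, 31 were higher in cDC2 and 3 lower, with a median difference of 3.24. Sirpa, which served to check the labels, is among the higher members. Sirpb1a, an activating relative of Sirpa, had the largest rise of the genes named for size, at 4.22, 9.99, 4.68 and 3.03 in cDC1 and 1516, 2186 and 1506 in cDC2 (log2 difference 8.15 ± 0.34, adjusted p = 9.3e-13). Its copy Sirpb1b was 2.53, 5, 4.68 and 0 in cDC1 and 391, 523 and 283 in cDC2. The further copy Sirpb1c was 0.845, 1.67, 0 and 0 in cDC1 and 144, 226 and 212 in cDC2. These copies are near-identical in sequence, and their counts are uncertain one against another. Siglece, an inhibitory receptor of sialic acid, was 5.91, 5, 0 and 0 in cDC1 and 405, 415 and 466 in cDC2, and Siglec1, known from macrophages, was 5.07, 0.833, 4.68 and 0 in cDC1 and 418, 281 and 237 in cDC2. Treml4 was 597, 794, 513 and 515 in cDC1 and 37.4, 39.5 and 23.4 in cDC2 and Btla, the inhibitory receptor of HVEM, was 9813, 10586, 7666 and 9529 in cDC1 and 2774, 4118 and 3601 in cDC2, both lower in cDC2. Of 12 Fc receptor genes, 5 were higher in cDC2 and 1 lower. Fcgr1 was 5.91, 13.3, 14 and 3.03 in cDC1 and 347, 274 and 315 in cDC2, Fcgr3 was 29.6 ± 13.2 in cDC1 and 934 ± 104 in cDC2, and Fcer1g, their common signalling chain, was 251 ± 66.2 in cDC1 and 4349 ± 751 in cDC2. Fcrla was 731 ± 70.4 in cDC1 and 255 ± 58.3 in cDC2 and no longer passed with a pseudocount of 0.1. The inhibitory Fcgr2b, at 2234 ± 210.3 in cDC1 and 8207 ± 215 in cDC2, had no overlap but did not pass in the main limma fit (log2 difference 1.88 ± 0.79, adjusted p = 0.11). It passed in edgeR and DESeq2. It also passed in limma when only the 7 libraries were fitted (SE 0.094, adjusted p = 1.1e-05) and in lane 8 alone (adjusted p = 0.0012).

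Chemokine receptors were higher in cDC2 in 12 of 17 tested genes and lower in 2. The higher genes include Ccr7, the gene of a sorted protein. Cxcr3 was 591, 631, 752 and 436 in cDC1 and 9.61, 22.1 and 20.2 in cDC2, 34.8-fold lower in cDC2 and, with Xcr1, the only receptor called lower. Cxcr2, known from neutrophils, was 11, 9.99, 0 and 8.08 in cDC1 and 873, 638 and 855 in cDC2 (log2 difference 7.05 ± 0.86, adjusted p = 2.7e-06). The other granulocyte genes tested, Mpo, Prg2 and Ltf, did not pass, and the part of such cells was not tested. Ccr1 was 10.1, 8.33, 9.36 and 23.2 in cDC1 and 733, 915 and 760.1 in cDC2 and Cx3cr1, the receptor of fractalkine, was 32.9, 20.8, 32.8 and 20.2 in cDC1 and 1623, 1263 and 1478 in cDC2, with no overlap for either. Darc (Ackr1), a scavenging receptor, was 2.04 ± 1.54 in cDC1 and 54.6 ± 21.2 in cDC2. Of 25 chemokine ligands, 14 were higher in cDC2 and 1, Cxcl9, was lower, at 5681, 6441, 6541 and 7159 in cDC1 and 1909.7, 1846 and 1599.7 in cDC2. Ccl9 was 17.7, 27.5, 14 and 29.3 in cDC1 and 2672, 2902 and 2087 in cDC2, Ccl17, a ligand of CCR4, was 186, 214, 312 and 159 in cDC1 and 5196, 5284 and 6586 in cDC2, and Cxcl2 was 60, 88.3, 98.3 and 141 in cDC1 and 1371, 1766 and 1403 in cDC2. Ccl24, which attracts eosinophils, was 0.845, 0, 0 and 0 in cDC1 and 128, 104 and 140.2 in cDC2.

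Cytokine genes were higher in cDC2 in 11 of 28 and lower in 4. Osm, which encodes oncostatin M, was 28.7, 36.6, 34.3 and 23.2 in cDC1 and 3072, 3746 and 2847 in cDC2, a 105-fold higher level with no overlap (log2 difference 6.68 ± 0.26, adjusted p = 4.2e-13). Tnfsf8, which encodes CD30 ligand, was 6.76, 7.5, 7.8 and 7.07 in cDC1 and 423, 512 and 444 in cDC2, and Tnfsf10, which encodes TRAIL, was 14.4 ± 4.62 in cDC1 and 208 ± 47.7 in cDC2. Il1b was 4963, 6944, 5848 and 6959.6 in cDC1 and 36746, 37920.4 and 36918 in cDC2, a 6.02-fold higher level, and was named after its values were seen. The 4 lower genes were Il12b, a subunit of interleukin 12, at 1102, 1019, 971 and 1119.7 in cDC1 and 222, 297 and 218 in cDC2, Lif at 97.1, 277, 122 and 223 in cDC1 and 55.5, 81.7 and 35.8 in cDC2, Il18 at 742 ± 101 in cDC1 and 287 ± 19.6 in cDC2 and Il15 at 582 ± 106 in cDC1 and 252 ± 29.5 in cDC2. Tnf and Il6 did not pass, at -0.32 ± 0.20 and 0.89 ± 0.31. Without cDC2 replicate 3 the difference of Lif was -1.28 and no longer passed, with an adjusted p of 0.131 in limma.

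Of 42 cytokine and growth factor receptors, 19 were higher in cDC2 and none lower. Il7r was 44.8, 19.2, 10.9 and 23.2 in cDC1 and 1061, 1373 and 1115 in cDC2 (log2 difference 5.69 ± 0.41, adjusted p = 1.8e-09). Il1rl1, the receptor of interleukin 33, was 3.38, 0, 0 and 0 in cDC1 and 136, 133 and 119.9 in cDC2, Il1rl2, the receptor of interleukin 36, was 25.3, 13.3, 12.5 and 42.4 in cDC1 and 931, 958 and 905 in cDC2, and Csf3r, the receptor of G-CSF, was 14.4, 23.3, 9.36 and 16.2 in cDC1 and 475, 380.3 and 354 in cDC2. The receptors of the growth factors that act on both subsets differed less. Flt3 was 18627, 17952, 16444 and 17648 in cDC1 and 12141, 13559.9 and 11737 in cDC2, without overlap and with a difference of -0.50 ± 0.12, Kit was 6263 ± 843 in cDC1 and 4046 ± 524 in cDC2, and Csf2ra was 7312 ± 1319 in cDC1 and 6558 ± 370.5 in cDC2, with overlap.

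Costimulatory and coinhibitory ligands were higher in 7 of 19 and lower in 2. Pdcd1lg2, which encodes PD-L2, was 33.8, 13.3, 34.3 and 9.09 in cDC1 and 712, 757 and 927 in cDC2, and Cd274, which encodes PD-L1, was 491, 473, 495 and 499 in cDC1 and 4010.5, 4493 and 4104 in cDC2 (log2 difference 3.10 ± 0.15, adjusted p = 7.5e-12). Pvrl2 (Nectin2) was 32.5 ± 7.39 in cDC1 and 189 ± 13.6 in cDC2 and Tnfsf9, the ligand of 4-1BB, was 254 ± 51.8 in cDC1 and 714 ± 69.8 in cDC2. Cd86, the ligand of CD28, was 10338, 10895, 10723 and 11108 in cDC1 and 3946, 4798 and 4858 in cDC2, 2.37-fold lower in cDC2 (log2 difference -1.25 ± 0.15, adjusted p = 1.8e-06), and the other lower gene was the sorted Cd24a. Cd80 and Cd40 differed by 0.66 ± 0.18 and 0.45 ± 0.18 and did not pass.

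Notch and integrin genes moved in both directions. Of the Notch genes 9.5% were higher, near the 11.0% of all tested genes, and 23.8% were lower, against 5.42%. Of the integrins 20% were higher and 20% lower. Notch4 was 7131, 7333, 6157 and 5087 in cDC1 and 60.8, 68.3 and 95 in cDC2, 86-fold lower in cDC2 (log2 difference -6.42 ± 0.46, adjusted p = 1.4e-09). Jag2, a Notch ligand, was 1641, 1448, 1381 and 1135 in cDC1 and 136, 187 and 176 in cDC2, Dtx4 was 748 ± 59.1 in cDC1 and 179 ± 16.7 in cDC2 and the target gene Hes1 was 234 ± 67.1 in cDC1 and 65.7 ± 24.5 in cDC2. The call of Hes1 was lost without cDC2 replicate 3, with an adjusted p of 0.154 in limma. These 4 and Esam were the lower genes of 21 tested, and the 2 higher ones were Jag1, at 25 ± 5.97 in cDC1 and 61.5 ± 7.19 in cDC2, and Dll4. Of 25 integrin subunits, 5 were higher and 5 lower. The lower genes were Itgae, a cDC1 marker, and Itga8, Itga3, Itgal and Itga6, which had log2 differences from -4.12 for Itga8 to -1.71 for Itga6, and Itgal, a subunit of LFA-1, was 10032, 9134, 9007 and 8307 in cDC1 and 1846, 1963 and 1754 in cDC2. Itgb3, Itga9 and Itgb5 were 17.5-fold, 19.9-fold and 6.87-fold higher, beside Itgb8 and the sorted Itgam.

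Among genes with a mean of 100 or more, no overlap and no exon shared on the same strand, the 12 largest falls in cDC2 were Naalad2, Fzd1, Padi1, Alpl, Clnk, Btnl4, Cyp8b1, Ttc39a, Gm11837, Dkk3, Esyt3 and Gcsam. Naalad2, a peptidase, was 834, 973, 705 and 933 in cDC1 and 1.07, 2.68 and 0 in cDC2. Fzd1, a Wnt receptor, was 1883, 1971, 1613 and 1756 in cDC1 and 2.13, 12.7 and 14 in cDC2, and Dkk3, a secreted relative of Wnt inhibitors, was 461, 429, 454 and 410.3 in cDC1 and 6.4, 2.01 and 1.56 in cDC2. Clnk, an adaptor of immune receptors, was 1204, 996, 996 and 869 in cDC1 and 0, 24.1 and 12.5 in cDC2, and Alpl, an alkaline phosphatase, was 414, 435, 532 and 279 in cDC1 and 2.13, 1.34 and 1.56 in cDC2. The cDC2 values of Alpl and Padi1 came from 3 reads or fewer in every library, so their folds were not given. Gm11837 lies antisense to Necab1 and had no read in cDC2 against 108, 117, 82.7 and 207 in cDC1, at least 39.1-fold lower.

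The 12 largest rises were Sirpb1a, Tarm1, Gm16553, Cd209c, Mmp12, Cd209a, Cd209b, Abca9, Emr4, Siglece, Ptgir and Cxcr2. Mmp12, which encodes macrophage elastase, was 92.1, 28.3, 26.5 and 23.2 in cDC1 and 7770.1, 7901 and 7953 in cDC2, with cDC1 replicate 1 above the other 3 (log2 difference 7.74 ± 0.73, adjusted p = 7.6e-08). Tarm1, an activating receptor, was 4.22, 0, 0 and 2.02 in cDC1 and 457, 409.8 and 754 in cDC2, and Ptgir, the prostacyclin receptor, was 5.07, 0, 0 and 2.02 in cDC1 and 275, 309 and 273 in cDC2. Abca9, a transporter, was 10.1, 2.5, 1.56 and 9.09 in cDC1 and 1427, 1219 and 712 in cDC2. Emr4 (Adgre4), an adhesion receptor related to F4/80, was 5.07, 8.33, 0 and 0 in cDC1 and 504, 561 and 467 in cDC2. Gm16553 lies antisense to Clec4g, and whether the counting used strand was not given in the sources used here, so its reads and those of Clec4g cannot be told apart.

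Interferon-stimulated genes were higher in cDC2 in 22 of 42 tested members and lower in 1, with a median difference of 1.10. Rtp4 was 40.5, 75, 18.7 and 13.1 in cDC1 and 1909.7, 2345 and 1917 in cDC2, 55.8-fold higher in cDC2 (log2 difference 6.06 ± 0.46, adjusted p = 4.2e-09). Ifit3 was 109, 145, 126 and 113 in cDC1 and 2984, 4036 and 3428 in cDC2 (log2 difference 4.81 ± 0.24, adjusted p = 8.7e-12), Ifit1 was 79.6 ± 17.2 in cDC1 and 2007 ± 169.7 in cDC2 and Oasl2 was 380.1 ± 36.9 in cDC1 and 7430.3 ± 566 in cDC2, and these members encode proteins that act against viral RNA. I830012O16Rik (Ifit3b) was 19.1 ± 6.35 in cDC1 and 894 ± 149 in cDC2. Gm14446 (Ifit1bl1) was 22.3 ± 8.15 in cDC1 and 1133 ± 268 in cDC2, but both are copies of Ifit genes and may share reads with them. Other members of the same list did not pass. Irf7 was 12924, 16099, 17601 and 11736 in cDC1 and 10072, 12262 and 11561 in cDC2 and Mx1 was 5681, 6705, 5135 and 6958 in cDC1 and 4811, 6326 and 4713 in cDC2, both with overlap, while Isg15, at 1969, 2298, 3417 and 2049 in cDC1 and 3593, 3617 and 4455 in cDC2, did not overlap and missed the size limit. Ifi205, a DNA sensor family member, was the lower one, at 18144, 22629, 19447 and 21578 in cDC1 and 1423, 2368 and 2139 in cDC2, 10.3-fold lower in cDC2 (log2 difference -3.40 ± 0.32, adjusted p = 8.4e-08).

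The bases before the transcript start are shown for members of this list because they moved together in some cases and not in others. The core of the interferon response element, GAAA followed by any 2 bases and GAAA again, was searched on both strands in the 250 bases before each RefSeq start (GRCm38.p6), for the 10560 tested genes that matched a RefSeq promoter. It was present in 358 of them (3.39%), in 78 of 1247 genes higher in cDC2 (6.26%) and in 20 of 616 lower genes (3.25%). In the interferon list it was present in 14 of the 19 matched higher genes, in 5 of the 13 that did not pass and in Ifi205. Capitals mark the matches, which in the Ifit genes and Stat2 read on the other strand.
Ifit3 (chr19:34583279-34583528, plus strand): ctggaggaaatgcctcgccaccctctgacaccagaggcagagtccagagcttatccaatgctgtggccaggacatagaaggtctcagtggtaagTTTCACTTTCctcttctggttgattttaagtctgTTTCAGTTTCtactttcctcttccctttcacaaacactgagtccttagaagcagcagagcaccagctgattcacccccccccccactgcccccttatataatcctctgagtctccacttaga
I830012O16Rik (chr19:34607707-34607956, plus strand): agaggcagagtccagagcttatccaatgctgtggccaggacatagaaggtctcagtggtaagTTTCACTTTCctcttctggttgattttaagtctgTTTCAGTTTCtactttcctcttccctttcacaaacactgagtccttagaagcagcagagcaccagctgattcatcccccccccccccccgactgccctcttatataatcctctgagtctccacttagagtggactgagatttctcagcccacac
Ifit1 (chr19:34640639-34640888, plus strand): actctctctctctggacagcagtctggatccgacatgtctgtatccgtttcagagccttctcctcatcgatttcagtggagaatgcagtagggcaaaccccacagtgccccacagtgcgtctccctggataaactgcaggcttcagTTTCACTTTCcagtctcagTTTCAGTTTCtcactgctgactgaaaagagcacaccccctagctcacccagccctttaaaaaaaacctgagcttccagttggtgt
Ifi205 (chr1:174031756-174032005, minus strand): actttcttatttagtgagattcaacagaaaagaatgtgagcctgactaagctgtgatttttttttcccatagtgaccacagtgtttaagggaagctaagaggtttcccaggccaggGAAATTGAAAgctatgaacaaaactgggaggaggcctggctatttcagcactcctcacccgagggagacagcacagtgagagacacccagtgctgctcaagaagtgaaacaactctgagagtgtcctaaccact
Stat2 (chr10:128270248-128270497, plus strand): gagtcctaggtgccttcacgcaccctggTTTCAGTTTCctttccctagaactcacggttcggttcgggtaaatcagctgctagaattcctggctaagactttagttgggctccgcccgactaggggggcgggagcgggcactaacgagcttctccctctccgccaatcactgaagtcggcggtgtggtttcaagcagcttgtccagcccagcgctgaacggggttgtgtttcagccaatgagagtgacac
The Ifit3 and I830012O16Rik stretches are near copies, with matches beginning 156 and 122 bases before the start in Ifit3 and 188 and 154 bases in I830012O16Rik. In Ifit1 the matches begin 104 and 85 bases before the start. The match of Ifi205, the gene lower in cDC2, begins 134 bases before the start, and that of Stat2, which was 9387 ± 1213 in cDC1 and 7347 ± 828 in cDC2, begins 222 bases before it. The windows of Oasl2, higher in cDC2, and of Eif2ak2, which did not pass, held no match. The presence of these letters is a description and not a binding site. TGANTCA, the core bound by AP-1 factors, was found in 8.58% of higher and 5.68% of lower genes against 5.6% of all, and CACCTG, an E-box bound by ZEB factors, in 22.4% and 25.2% against 18.3%.

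Genes of dead-cell and lipid uptake were higher in cDC2 in 17 of 30 and lower in 1, and complement genes in 10 of 15 with none lower. The higher complement genes include Itgam, the gene of a sorted protein. C1qa, a subunit of the complement component C1q, was 98, 88.3, 109 and 59.6 in cDC1 and 2797, 1614 and 2456 in cDC2. C1qb, another subunit, was 71.8, 56.6, 128 and 18.2 in cDC1 and 2753, 1717 and 3148 in cDC2. Lpl, a lipase, was 34.6, 33.3, 28.1 and 17.2 in cDC1 and 1459, 1064 and 1048 in cDC2 and Msr1, a scavenger receptor, was 10.1, 16.7, 7.8 and 11.1 in cDC1 and 659, 386 and 385 in cDC2. C3ar1 was 7.6, 4.16, 9.36 and 2.02 in cDC1 and 232, 110.5 and 187 in cDC2 and Cfb was 2.53, 2.5, 0 and 1.01 in cDC1 and 113, 24.8 and 84.1 in cDC2. The lower gene was Cd36, a receptor of oxidized lipids, at 7109, 7122, 6547 and 7589 in cDC1 and 397, 479 and 385 in cDC2 (log2 difference -4.08 ± 0.33, adjusted p = 1.1e-08).

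The C1q genes, Siglec1 and Fcgr1 also belong to a list of macrophage and monocyte markers. Of its 24 tested members, 19 were higher in cDC2 and none lower, with a median difference of 3.56. The summed level of the list ranged from 9079.7 to 12357 in cDC1 and from 64797 to 78518 in cDC2. Emr1 (Adgre1), which encodes F4/80, a protein that the labels exclude in the cDC1 gate and the study's flow cytometry in both subsets, was 86.2, 81.6, 81.1 and 142 in cDC1 and 1777, 1805 and 2039 in cDC2 (log2 difference 4.29 ± 0.52, adjusted p = 2.3e-06). Mertk was 5.07, 9.16, 4.68 and 0 in cDC1 and 183, 118 and 143 in cDC2, Cd163 was 8.45, 9.16, 6.24 and 5.05 in cDC1 and 307, 372 and 212 in cDC2 and Csf1r was 1101, 1013, 1016 and 835 in cDC1 and 14458, 11628 and 13397 in cDC2. None of these 4 was at 0 in cDC2, and Mertk had no read in 1 cDC1 library. The markers Vcam1, Cd68, Ly6c2, Slc40a1 and Hmox1 did not pass, with differences of -0.20 for Vcam1, 0.48 for Cd68 and -0.06 for Ly6c2. The same list held 11 genes higher in splenic cDC2 and 19 higher in thymic mature cDC2, and no gene lower in either. Its part in the differences of scavenger, complement, Fc receptor and lectin genes was not tested, and more such cells or more of their RNA per cell cannot be told apart in bulk libraries. The labels do not repeat the exclusion of F4/80 for the cDC2 gate, and how far it was applied there was not tested.

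Genes known to rise in mature CCR7+ cells were also uneven. Of 29 tested members, 13 were higher in immature cDC2 and 3 lower, with summed levels from 49393 to 56073 in cDC1 and from 83455 to 100370 in cDC2. Ccr7, the gene of a sorted protein, is among the higher members. Il4i1, which encodes an amino acid oxidase, was 388, 226, 334 and 208 in cDC1 and 5477, 6691 and 7302 in cDC2, Fscn1, which encodes fascin, was 431, 339.8, 421 and 273 in cDC1 and 3198, 2972 and 4640.2 in cDC2, and Cd63 was 58.7 ± 21 in cDC1 and 1230.1 ± 299 in cDC2. Ccl22, named after its values were seen, was 1809 ± 411 in cDC1 and 15572 ± 3575 in cDC2. The lower members were Laptm4b, at 735 ± 86.9 in cDC1 and 68.6 ± 9.82 in cDC2, and Cd86 and Esam as given above. Their part in the results for chemokines and PD-1 ligands was not tested.

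Markers of other cells were examined next. The T cell list had 1 of 20 genes higher, Lat, and none lower, with summed levels from 763 to 1025 in cDC1 and from 1000 to 1446 in cDC2. No NK cell gene of 5 passed, and of 10 B cell genes 4 were higher and 2 lower, with Cd79b at 17.3 ± 7.64 in cDC1 and 165 ± 42.6 in cDC2, Cd22 at 95.1 ± 15.6 in cDC1 and 366 ± 44.8 in cDC2 and Ms4a1 at 98.1 ± 16.3 in cDC1 and 21 ± 7.48 in cDC2. Plasmacytoid dendritic cell markers were higher in 5 of 16, among them Tcf4, Spib, Runx2 and Cd209d. Of 11 thymic epithelial genes 3 were higher, and Epcam, at 501, 584, 576 and 663 in cDC1 and 3391, 3443 and 3715 in cDC2, made up most of their level. The summed level of the thymic epithelial list ranged from 682 to 799 in cDC1 and from 3582 to 3978 in cDC2. Of 7 stromal and red cell genes, Kdr, Pecam1 and Pdgfrb were higher and Dcn was lower, with Kdr at 509.6 ± 88.2 in cDC1 and 2255 ± 145 in cDC2 and Pecam1 at 298 ± 46 in cDC1 and 2539 ± 124 in cDC2, and the summed level of that list ranged from 701 to 969 in cDC1 and from 4573 to 5083 in cDC2. Of 4 granulocyte genes, 1 was higher, Cxcr2, with summed levels of the list from 26.2 to 37.4 in cDC1 and from 668 to 916 in cDC2. Cxcr2 itself made up most of the cDC2 sum. None of 42 cell cycle genes passed in either direction, with a median difference of 0.091 and summed levels from 82993 to 95897 in cDC1 and from 95431 to 102730 in cDC2. The part of these cells in the results was not tested.

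The same subsets were compared in spleen. Splenic cDC2 differed from splenic cDC1 in 1486 higher (9.93%) and 1003 lower genes (6.70%). Of the genes higher in thymic cDC2, 947 were also higher in splenic cDC2, which is 57.6% of the thymic and 63.7% of the splenic list. Of the lower genes 522 were shared, 64.3% of the thymic and 52.0% of the splenic list. The thymic difference itself differed from the splenic difference in 746 genes (4.98%), 490 (3.27%) with a more positive and 256 (1.71%) with a more negative thymic difference, and 461 of them were called in the thymic comparison.

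Flt1, which encodes a receptor of VEGF, was 236, 212, 151 and 279.9 in cDC1 and 2979, 2254 and 2565 in cDC2 in the thymic libraries and 1097 ± 147 in splenic cDC1 and 52.9 ± 27.4 in splenic cDC2. The direction was opposite in the organs, with a difference of differences of 8.08 ± 0.45 (SE), adjusted p = 6.7e-10. Cd209e, at 74.7 ± 9.82 in splenic cDC1 and 24.9 ± 14.6 in splenic cDC2, differed by 7.37 ± 0.73 (SE), adjusted p = 2.1e-06, and Ptprf, a receptor phosphatase, at 60.5 ± 39.8 in splenic cDC1 and 7.19 ± 3.89 in splenic cDC2, by 6.62 ± 0.67 (SE), adjusted p = 3.0e-06. For 1600029D21Rik (Plet1), at 171 ± 39.8 in cDC1 and 3908 ± 702 in cDC2 in thymus and 22 ± 4.9 in splenic cDC1 and 2.37 ± 2.82 in splenic cDC2, the difference of differences was 7.65 ± 1.19 (SE), adjusted p = 3.9e-04. Ccl24 was present in thymic cDC2 and at 0.872 ± 0.846 in splenic cDC1 and 1.15 ± 1 in splenic cDC2, a difference of 6.56 ± 0.79 (SE), adjusted p = 2.0e-05. Each of these 5 was higher in thymic cDC2, and 4 of them, all but Ccl24, were called lower in splenic cDC2.

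The genes with the most negative thymic against splenic difference were Btnl4, Padi1, BC051142, Pou6f1 and Cdc42bpg. Btnl4, a butyrophilin-like gene, was 192 ± 40 in cDC1 and 0.519 ± 0.899 in cDC2 in thymus and 4.9 ± 4.06 in splenic cDC1 and 2.42 ± 2.89 in splenic cDC2, and its difference of differences was -6.36 ± 1.33 (SE), adjusted p = 0.0054. Padi1, which encodes a protein deiminase, was 419, 416, 325 and 399 in thymic cDC1 and 4.41 ± 3.63 in splenic cDC1 and 0.543 ± 0.941 in splenic cDC2, a value of -5.68 ± 1.04 (SE), adjusted p = 0.0018. Cdc42bpg, a kinase, was 1668, 1763, 1484 and 1375 in cDC1 and 104, 117 and 140.2 in cDC2 in thymus and 196 ± 93.2 in splenic cDC1 and 261 ± 150.2 in splenic cDC2, a value of -4.03 ± 0.58 (SE), adjusted p = 1.7e-04. BC051142 gave -4.12 ± 0.38 (SE), adjusted p = 1.3e-06 and Pou6f1 gave -4.04 ± 0.57 (SE), adjusted p = 1.6e-04. All 5 were lower in thymic cDC2, and in spleen Pou6f1 was called higher in cDC2, at 40.6 ± 15.6 in splenic cDC1 and 116 ± 26 in splenic cDC2, while the other 4 did not pass.

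Against the mature comparison the immature difference differed in 2035 genes (13.6%), 786 (5.25%) in the positive and 1249 (8.34%) in the negative direction, of which 986 were called in the immature comparison. Mature cDC2 differed from mature cDC1 in 2182 higher (14.6%) and 652 lower genes (4.36%). Of the genes higher in immature cDC2, 842 were also higher in mature cDC2, 51.2% of the immature and 38.6% of the mature list, and of the lower genes 218 were shared, 26.8% and 33.4%. Of the cDC1 markers 18 were lower in immature and 11 in mature cDC2.

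Cd209b, high in immature cDC2, had no read in mature cDC1 and was at most a few reads in mature cDC2. Cd209c was 1.07 ± 1.85 in mature cDC1 and 2.16 ± 2.09 in mature cDC2. Their differences of differences were 7.06 ± 0.74 (SE), adjusted p = 2.6e-06, and 7.26 ± 1.12 (SE), adjusted p = 1.9e-04. Gm16553, Zbtb32 and Kcne3 were the other 3 in this direction, with 7.46 ± 0.80 (SE), adjusted p = 3.3e-06, 6.73 ± 1.12 (SE), adjusted p = 3.9e-04 and 6.59 ± 1.51 (SE), adjusted p = 0.006. Zbtb32, a repressor, was 2.53, 1.67, 6.24 and 0 in cDC1 and 127, 90.4 and 91.9 in cDC2 in immature cells and 9.7 ± 9.35 in mature cDC1 and 2.21 ± 1.98 in mature cDC2. In the other direction Padi1 gave -8.04 ± 1.08 (SE), adjusted p = 4.1e-05, and Cyp8b1, a sterol hydroxylase, gave -7.64 ± 0.75 (SE), adjusted p = 1.2e-06. Padi1 was 3.82 ± 4.01 in mature cDC1 and 6.41 ± 7.39 in mature cDC2. Cyp8b1 was 190 ± 70.9 in immature cDC1, 0.446 ± 0.773 in immature cDC2, 0 in mature cDC1 and 0.696 ± 1.21 in mature cDC2. Both genes were near absent in these thymic groups outside immature cDC1, so the values reflect the immature cDC1 level and depend on the pseudocount. Asb2 was 1367, 1646, 1595 and 1144 in cDC1 and 260.5, 276 and 312 in cDC2 in immature cells and 9.79 ± 8.69 in mature cDC1 and 180.0 ± 109 in mature cDC2, so that it was lower in immature and higher in mature cDC2, with -6.91 ± 0.98 (SE), adjusted p = 8.1e-05. Cxcr3 was 0.267 ± 0.462 in mature cDC1 and 3.27 ± 1.83 in mature cDC2 and gave -6.83 ± 0.60 (SE), adjusted p = 3.2e-07.

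**Figure D4:**
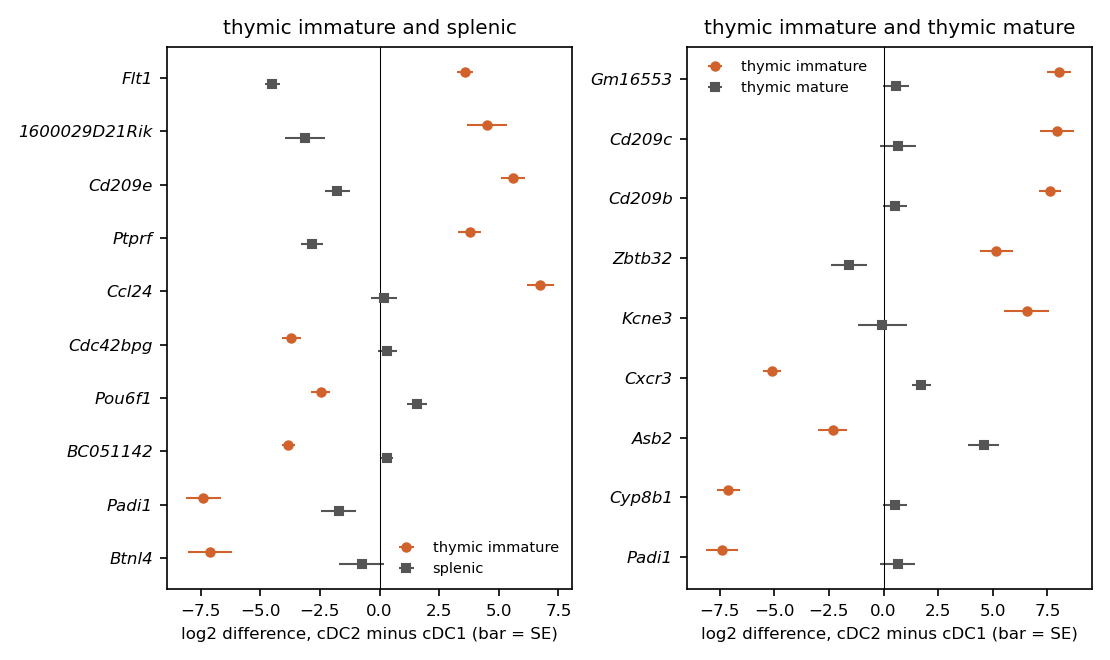
Log2 difference, cDC2 minus cDC1, with its SE (x axis) for the genes named for the most positive and most negative difference of differences, thymic immature (orange) beside splenic cells on the left and beside thymic mature cells on the right (grey squares). Flt1, 1600029D21Rik, Cd209e and Ptprf lie on opposite sides of 0 in thymus and spleen.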

How the data were processed

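RNA-seq was measured in 21 libraries of sorted dendritic cells, 7 of them thymic immature cDC1 and cDC2. Per the study's methods the reads were trimmed, aligned to mm10 with STAR 2.6 and counted per Ensembl gene with HTSeq-count. The strand setting and the Ensembl release were not given in the sources used here. The authors deposited normalized read counts from DESeq2 1.24.0, a signal in which each count is divided by a size factor of its library. Every deposited value corresponded to a whole number of reads within a tolerance of 0.02, and these reads were recovered. Depth was 14266867 to 33603513 reads in the 7 libraries.

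Genes reaching 10 in 3 or more libraries were tested (14970 of 37734). limma 3.58.1 (R 4.3.3) was fitted to log2(value + 1), with a pseudocount of 1, over 6 groups and 20 samples, since splenic cDC1 libraries 4 and 5, with the same number, index and lane in the labels and read counts far closer (chi-square over its degrees of freedom 2.44) than any other splenic cDC1 pair (25 to 176), were averaged and counted as 1 sample. P-values were adjusted by Benjamini-Hochberg. edgeR 4.0.16 and DESeq2 1.42.0 on the recovered reads were alternatives, together with pseudocounts, filters, TMM scaling, lane terms, a replicate block and leaving out libraries. The steps were tested on simulated data.

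The comparison, its 32 gene lists and the tests were chosen with earlier results of these data known. Named were the genes of the sort and the markers, the 12 largest rises and falls with a mean of at least 100 and no overlap, up to 4 members of each list in each direction with a mean of at least 50, members that did not pass in the lists of presentation, markers and factors, the proteases of the study's question, and up to 5 genes per direction of each difference of differences. Some genes that these rules named are not reported here and were left out of the lists. A further 50 genes were named after their values were seen. Promoter windows were matched to RefSeq by symbol.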

Additional observations from a re-analysis of the deposited data

Results flagged for a closer look

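In 16 of the 281 named genes 1 of the 4 cDC1 libraries lay far from the other 3 by Dixon's test, which chance gives in about 1 in 20 groups. These normalized read counts were Emr1 in replicate 4 (142.5), Ptprc in replicate 3 (18460), Ttc39a in replicate 3 (3909), Mmp12 in replicate 1 (92.08), Cd209c in replicate 2 (9.161), Psmb9 in replicate 3 (10770), Calr in replicate 3 (62710), Ctsd in replicate 3 (371.4), Clec4e in replicate 1 (0.8447), Ccr1 in replicate 4 (23.24), Ccl24 in replicate 1 (0.8447), Il1rl1 in replicate 1 (3.379), Tlr2 in replicate 3 (1075), Unc93b1 in replicate 4 (9104), Stat2 in replicate 3 (7571), Cd40 in replicate 3 (2494). For Clec4e, Ccl24 and Il1rl1 the other 3 libraries were at 0, so any read at all was flagged. Those entries cannot show an outlying library. The cDC2 group of 3 was not tested.

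The log2 difference between cDC2 and cDC1 differed between thymus and spleen, tested as a difference of differences in limma, for Padi1 (-5.68), Btnl4 (-6.36), Ccl24 (6.56), BC051142 (-4.12), Pou6f1 (-4.04), Cdc42bpg (-4.03), Ptprf (6.62), Cd209e (7.37), 1600029D21Rik (7.65), Flt1 (8.08). It differed between immature and mature thymic cells for Padi1 (-8.04), Cyp8b1 (-7.64), Cd209b (7.06), Cd209c (7.26), Gm16553 (7.46), Cxcr3 (-6.83), Asb2 (-6.91), Kcne3 (6.59), Zbtb32 (6.73). A positive value means a more positive difference in thymic immature cells.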

How the results depend on the processing

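When only genes reaching 10 in all 20 samples were tested, 1086 were called against 2456 (663 higher, 423 lower), a filter that tests fewer genes. With the adjusted p alone 3892 genes passed (1571 lower), and with a log2 limit of 2 there were 1420 (1038 higher, 382 lower). The count of genes whose difference differed between thymus and spleen was 436 with the stricter filter and 428 with the log2 limit of 2, and between immature and mature cells 1183 and 1105. edgeR called 2452 genes and DESeq2 2559. Leaving out 1 library at a time gave 2253 to 2398 called genes, 1479 to 1627 higher and 763 to 824 lower, and 592 to 744 and 1649 to 2082 for the differences of differences.

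With the label number as a replicate block, 2472 genes were called (1609 higher, 863 lower). Libraries of the same number correlated at -0.15, 0.259, 0.276 and -0.0767 in their deviations from the group means, and libraries of different numbers at -0.224 to 0.258. The numbers were not taken as pairs, since no label says what they mark and not every pair was over 0.1. Same-number libraries also share a lane.

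Of 281 named genes, 241 kept their direction and side of the threshold under every alternative run for them. The genes that changed sign or reached 0 had not passed. When 1 library was left out their log2 differences ranged as follows: Ly6c1 (-1.14 to 0.39), Ly6c2 (-0.18 to 0.076), Itga2 (0 to 0.68), Zeb1 (-0.19 to 0.014), Zbtb46 (-0.11 to 0.090), Erap1 (-0.13 to 0.057), Sec22b (-0.18 to 0.033), Cyba (-0.32 to 0.051), Ncf1 (-0.032 to 0.034), Lnpep (-0.38 to 0.15), Vamp8 (-0.18 to 0.13), H2-Ab1 (-0.18 to 0.11), H2-Eb1 (-0.095 to 0.18), H2-DMa (-0.076 to 0.24), Ciita (-0.019 to 0.19), Rfx5 (-0.029 to 0.12), Vcam1 (-0.43 to 0.029), Myd88 (-0.061 to 0.069). The other changes of sign were with a pseudocount of 0.1 Ly6c1 at 0.19, in lane 8 alone Zbtb46 at 0.12 and Erap1 at 0.071 and Lnpep at 0.044 and H2-Ab1 at 0.010 and H2-Eb1 at -0.0018, with cDC1 replicates 3 and 4 averaged Ncf1 at -0.016 and Myd88 at -0.00048, by edgeR Ncf1 at -0.011 and H2-Eb1 at -0.023 and Myd88 at -0.0048, with the replicate block Ncf1 at -0.0083, with TMM scaling Ncf1 at -0.010, with lane as a covariate H2-Ab1 at 0.0036, by DESeq2 H2-Eb1 at -0.0063. The named calls lost when 1 library was left out were Esam, Tapbpl, Psme1, Lif, Hes1, Ctsl and Nfil3. Lost under other alternatives were Fcrla, Cd22 and Asb2 with a pseudocount of 0.1 (adjusted p of 0.15, 0.142 and 0.166), Tbx21 (0.103), Esam and Tapbpl in lane 8 alone, Esam with the replicate block, and Nfil3 by edgeR, DESeq2 and TMM scaling. The causes were not tested. Counts of called list members with single libraries left out, cDC1 replicates 3 and 4 averaged or lane 8 alone, alternatives chosen after seeing the data, ranged from 18 to 20 for macrophage markers and from 21 to 23 for interferon-stimulated genes. Small counts moved by more than 1.5 times: higher genes of T cells (0 to 2, reported as 1), NK cells (0 to 1), granulocytes, class II and Notch (1 to 2 each), and lower genes of B cells, the sort gate and scavenger receptors (1 to 2 each), proteases (1 to 3) and growth factor receptors (0 to 2). Fewer than 3 reads in a library limit what can be said of low genes.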
